A study of Mus musculus with 7 samples.

Results

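The genes described here copy DNA or prepare cells to copy it: Mcm2, Mcm3, Mcm4, Mcm5, Mcm6 and Mcm7, which encode the subunits of the replicative helicase, Pcna, which encodes the sliding clamp, Rrm2 and Tyms, which serve deoxynucleotide supply, and E2f1, a transcription factor of the G1/S transition. They were taken by symbol from a deposited table of 55487 mouse genes, and all 10 were found in it. All 10 also passed the filter for testing, which kept the 12058 genes that reached 1 TPM in 3 or more of the 7 libraries. TPM measures the abundance of a gene's transcripts per unit of length, with the same total set for every library.

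The libraries are total RNA of primary tumours grown in BALB/c mice from 4T1-12b(luc) cells, a luciferase-carrying mouse mammary carcinoma line, placed in the mammary fat pad. The mice are labelled WT, and every tumour is labelled day 12. The TIS sEV group (3 libraries) received small extracellular vesicles (membrane particles shed by cells) from 4T1 cells held for 72 h in nocodazole, a microtubule poison, at 100 ng/ml and then released for 72 h. TIS stands for therapy-induced senescence, a lasting cell cycle arrest brought on by a drug. The Cont sEV group (1 library) received vesicles from 4T1 cells given DMSO, the solvent, on the same schedule, and the Saline group (3 libraries) received saline. All were given by 6 injections into the tumour, 1 every other day. The vesicle donors and the tumours thus come from 1 cell line, and the RNA is of whole tissue, so fewer cells of a type and less RNA per cell cannot be told apart. The labels number the replicates without saying that they are separate animals, so a p-value here reflects the spread of these libraries alone, and that spread may be technical. The vesicle columns of the table bear the abbreviations NcE and CE, read here as TIS sEV and Cont sEV from the nocodazole treatment and from the number of columns of each. The labels do not spell this out, and every vesicle comparison rests on it.

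Before a cell enters S phase, the Mcm2 to Mcm7 ring is loaded onto replication origins by the origin recognition complex with Cdc6 and Cdt1, a step called licensing. In S phase the ring is activated by Cdc45 and the GINS complex and unwinds DNA ahead of the polymerases, which are held on the template by Pcna. Transcription of these genes is driven in large part by E2F factors, which RB proteins restrain in resting cells, and their mRNAs are widely read as a sign of proliferating cells in tumours.

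The libraries were not alike in make-up. In TIS sEV replicate 2, entries annotated as ribosomal RNA took 22.9% of the TPM, against 0.807% to 2.40% in the other 6 libraries, and coding genes took 28.6%, against 56.8% to 74.7%. The median tested gene had a log2 difference of -0.62 in TIS sEV against saline, -0.29 in TIS sEV against Cont sEV and -0.33 in Cont sEV against saline, and size factors brought these to -0.0037, -0.0043 and -0.0022. For this reason levels are also given as scaled TPM, which is TPM divided by a median-of-ratios size factor for each library (1.25, 0.352 and 0.993 in TIS sEV, 1.00 in Cont sEV, and 1.01, 1.51 and 1.51 in saline). All 10 epithelial markers reached 1 TPM in at least 1 library, with a scaled sum of 1525 to 2480 TPM in TIS sEV, 2771 TPM in Cont sEV and 1472 to 2872 TPM in saline. The depth of the libraries is unknown, since TPM keeps no counts.

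No gene of the 10 passed the test (limma on log2(TPM + 1), Benjamini-Hochberg adjusted p under 0.05 over all tested genes) in any of the 3 comparisons. The count was 0 of 10 in TIS sEV against saline, where 0.514% of all tested genes passed (42 higher and 20 lower). It was 0 of 10 in TIS sEV against Cont sEV, where 0.224% passed (17 higher and 10 lower), and 0 of 10 in Cont sEV against saline, where 0.207% passed (16 higher and 9 lower). At an unadjusted p under 0.05 the counts were 0 of 10, against 10.3% of all tested genes, then 1 of 10 (Mcm3), against 1.73%, and then 0 of 10, against 2.33%. With scaled TPM the genes called over the whole table were 0, then 1 higher, then 1 lower, and none was among the 10. The comparisons share libraries: both with Cont sEV rest on the same single library, and both with saline on the same 3.

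What the 10 genes shared was their level in the Cont sEV tumour. On scaled TPM that library was the highest of the 7 for 10 of 10 genes, where 16.4% of all tested genes met the same condition. On TPM as deposited it was the highest for 5 of 10 (Mcm2, Mcm3, Mcm4, Mcm5 and Pcna), where 9.35% of tested genes met it. The summed scaled level of the 10 genes was 318, 271 and 275 TPM in TIS sEV, 554 TPM in Cont sEV and 223, 306 and 263 TPM in saline. The TIS sEV and saline sums overlapped, and the Cont sEV sum lay above both. With 1 Cont sEV library, a level of the treatment and a level of that tumour cannot be told apart.

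**Figure D1:**
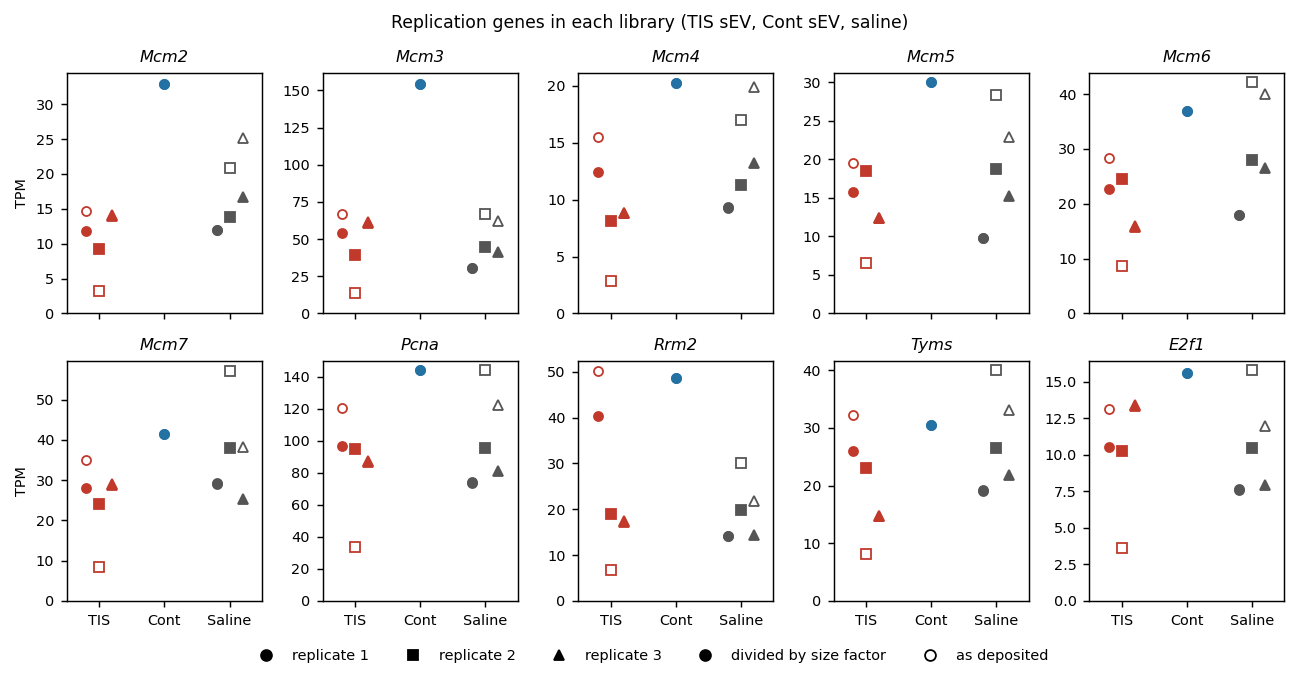
Level of each replication gene in each library, in TPM on a linear axis from 0, with TIS sEV on the left, Cont sEV in the middle and saline on the right. Filled symbols are TPM divided by the size factor and open symbols TPM as deposited (where the size factor is near 1 they coincide); the filled Cont sEV symbol is the highest filled one in all 10 panels, while filled TIS sEV and saline symbols overlap in every panel.

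Of the helicase subunits, Mcm3 was the most abundant and the one that stood out most. Mcm3 had 67.1, 13.9 and 60.8 TPM in TIS sEV, 154 TPM in Cont sEV and 30.7, 67.2 and 61.9 TPM in saline. On scaled TPM these became 53.8, 39.5 and 61.2 in TIS sEV, 154 in Cont sEV and 30.5, 44.5 and 41.1 in saline. The Cont sEV tumour had more than any other library on both scales, and a single TIS sEV library, replicate 2, lay within the saline range after scaling. The fitted log2 difference of Mcm3 was -0.37 (SE 0.64, adjusted p = 0.715) in TIS sEV against saline, and 0.40 (SE 0.24, adjusted p = 0.431) on scaled TPM, so its sign depends on the scaling. Between Cont sEV and saline it was 1.60 (SE 0.90, adjusted p = 0.9997 by limma), and 1.99 (SE 0.34, adjusted p = 0.318) on scaled TPM. In TIS sEV against Cont sEV the scaled difference was -1.59 (SE 0.34, adjusted p = 0.903). The call between Cont sEV and saline depended on a library outside that comparison. Without TIS sEV replicate 2 in the fit, the Mcm3 difference between Cont sEV and saline passed at an adjusted p of 0.0424, with the same difference of 1.60 and an SE of 0.46. That was the only change of a call among the 10 genes under the alternatives tried.

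Mcm2, which with Mcm5 forms the gate through which the ring closes on DNA, had 14.7, 3.27 and 14.0 TPM in TIS sEV, 33.0 TPM in Cont sEV and 12.0, 20.8 and 25.1 TPM in saline. Its scaled levels were 9.27 to 14.1 TPM in TIS sEV, 32.9 TPM in Cont sEV and 11.9 to 16.7 TPM in saline. TIS sEV and saline overlapped, and the Cont sEV value lay clear of both. Scaled log2 differences of Mcm2 were -0.26 (SE 0.22) in TIS sEV against saline, -1.43 (SE 0.31) in TIS sEV against Cont sEV and 1.18 (SE 0.31) in Cont sEV against saline. The adjusted p-values by limma were 0.545, 0.903 and 0.359.

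Mcm5 had 19.6, 6.50 and 12.3 TPM in TIS sEV, 30.0 TPM in Cont sEV and 9.81, 28.3 and 22.9 TPM in saline. Scaling changed the order of its libraries: TIS sEV replicate 2, the lowest as deposited, stood at 18.5 scaled TPM, and the lowest was saline replicate 1 at 9.74. Its partner in the same gate thus differed in pattern, since Mcm2 had its lowest scaled level in TIS sEV replicate 2. The scaled difference of Mcm5 was 0.11 (SE 0.27, adjusted p = 0.841) in TIS sEV against saline and 1.04 (SE 0.39, adjusted p = 0.369) in Cont sEV against saline.

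Mcm4, Mcm6 and Mcm7 make up the part of the ring that has helicase activity by itself in vitro. Mcm4 had 15.5, 2.85 and 8.80 TPM in TIS sEV, 20.2 TPM in Cont sEV and 9.31, 17.0 and 19.9 TPM in saline. Mcm6 had 28.3, 8.61 and 15.8 TPM in TIS sEV, 36.9 TPM in Cont sEV and 18.0, 42.1 and 39.9 TPM in saline. Mcm7 had 35.0, 8.47 and 28.9 TPM in TIS sEV, 41.4 TPM in Cont sEV and 29.3, 57.2 and 38.3 TPM in saline. In all 3 the lowest deposited value was TIS sEV replicate 2, and the TIS sEV and saline ranges overlapped. For Mcm6 and Mcm7 the highest deposited value was saline replicate 2, above the Cont sEV tumour. On scaled TPM, the differences between Cont sEV and saline were 0.81 (SE 0.32) for Mcm4, 0.62 (SE 0.35) for Mcm6 and 0.43 (SE 0.29) for Mcm7. Mcm7 thus had the smallest difference of the 6 subunits and Mcm3 the largest, and neither passed (adjusted p = 0.564 and 0.318 by limma).

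The make-up of the helicase mRNAs does not depend on scaling, because it is a share within a library. Mcm3 made up 37.2%, 31.9% and 43.2% of the summed Mcm2 to Mcm7 TPM in TIS sEV, 48.9% in Cont sEV and 28.1%, 28.9% and 29.7% in saline. It was the largest share in all 7 libraries, and its share was larger in each vesicle-treated library than in any saline library. Set against the median of the other subunits, Mcm3 gave a ratio of 3.43, 2.14 and 4.35 in TIS sEV. The Cont sEV ratio was 4.69, and the saline ratios were 2.55, 2.38 and 2.46. By that measure TIS sEV replicate 2 lay below every saline library, so the separation depends on the measure. The mean share was 37.5% ± 5.65 in TIS sEV and 28.9% ± 0.808 in saline (SD, n = 3 each), with a two-sided exact permutation p of 0.1. That is the smallest p that 3 libraries against 3 can give, 6 subunit shares were compared in the same way, and no adjustment could bring it under 0.05. Adjusted over the 6 shares, this permutation p was 0.6. Mcm7, the next most abundant subunit, made up 19.4% to 20.5% in TIS sEV, 13.1% in Cont sEV and 18.4% to 26.9% in saline. Mcm4 was the least abundant subunit in 6 of the 7 libraries, and Mcm2 in TIS sEV replicate 1. The proteins form a ring with 1 copy of each subunit, and the mRNA shares were far from even in every library.

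**Figure D2:**
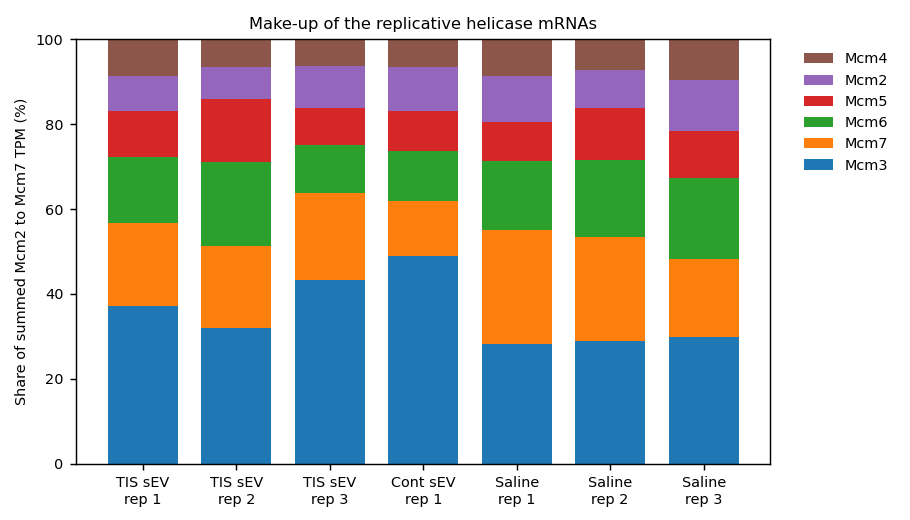
Share of each subunit in the summed TPM of Mcm2 to Mcm7, in percent, 1 bar for each library, with TIS sEV on the left, then Cont sEV and saline. The Mcm3 share at the bottom of each bar is 31.9% to 43.2% in TIS sEV, 48.9% in Cont sEV and 28.1% to 29.7% in saline.

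E2F factors bind short GC-rich words, and the promoters of several helicase genes hold such words near the start of transcription. Promoters were RefSeq windows of the GRCm38.p6 build, from 250 bases before to 50 bases after a start site. The words TTTCCCGC, TTTGGCGC, TTTGCCGC and TTTCGCGC were searched on both strands, where overlapping words each count. Of the 10 genes, 9 had an entry (all but Mcm4), and 4 of these held at least 1 word (Mcm3, Mcm5, Mcm6 and Mcm7). Counted by promoter this was 4 of 10 (40%), since Mcm7 has a further promoter without a word. Over all 32851 promoters in the table, 744 held one (2.26%). Among the lists described below, the share was 41.7% for origin recognition and helicase loading and 40% for E2F, RB and G1/S cyclin genes. It was 31% for polymerases, clamp loader and strand processing, 7.14% for mitotic genes and 0% for deoxynucleotide supply. The words of Mcm3, and a further word of Mcm7 at position 17, lie after the start site and are not printed. The stretches upstream of the other 3 start sites are given because they show how the words sit, with the words in capitals. They read 5′ to 3′ on the strand of the gene.

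Mcm6 (chr1:128359720-128359840, minus strand): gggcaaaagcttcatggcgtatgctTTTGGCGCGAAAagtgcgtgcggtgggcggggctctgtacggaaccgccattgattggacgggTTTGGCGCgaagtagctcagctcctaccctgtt
Mcm5 (chr8:75109331-75109392, plus strand): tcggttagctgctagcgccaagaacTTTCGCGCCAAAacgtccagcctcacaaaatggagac
Mcm7 (chr5:138172016-138172073, minus strand): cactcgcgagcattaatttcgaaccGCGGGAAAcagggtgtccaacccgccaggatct

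In Mcm6 and Mcm5 a pair of words on opposite strands overlap to form 1 longer run, which starts at position -110 from the start site in Mcm6 and at -153 in Mcm5. Mcm6 holds a further word at -47, and the word shown for Mcm7 is at -165. No binding was measured in these tumours, and a word is no evidence of a bound site. Mcm3 (with a word) and Rrm2 (without) had the largest scaled differences between Cont sEV and saline, and Mcm7 (with) and Tyms (without) the smallest, 0.43 each. Lacking these exact words in the window does not show that a gene lacks E2F sites, so no conclusion is drawn from this.

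Pcna, the clamp that tethers the polymerases and many repair enzymes to DNA, was the most abundant of the 10 genes. It had 121, 33.5 and 86.9 TPM in TIS sEV, 144 TPM in Cont sEV and 74.3, 144 and 122 TPM in saline. On scaled TPM it had 96.8, 95.0 and 87.5 in TIS sEV, 144 in Cont sEV and 73.8, 95.4 and 81.0 in saline. Scaling brought the TIS sEV libraries close together, since their spread fell to 5.31% of the mean, against 54.7% as deposited (SD over mean, n = 3). The scaled TIS sEV and saline values overlapped, and the Cont sEV value lay above all of them. The scaled difference of Pcna was 0.16 (SE 0.18, adjusted p = 0.639) in TIS sEV against saline, where the fit on deposited TPM gave -0.62 (SE 0.63, adjusted p = 0.565). Between Cont sEV and saline the scaled difference was 0.79 (SE 0.25, adjusted p = 0.359 by limma). A processed pseudogene copy, Pcna-ps2, shares sequence with it and was listed at 0.185 to 2.01 TPM over the 7 libraries, and a split of reads between the copies makes both values somewhat uncertain.

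Rrm2, the small subunit of ribonucleotide reductase and the one that limits deoxynucleotide synthesis in S phase, varied most within the TIS sEV group. It had 50.2, 6.71 and 17.3 TPM in TIS sEV, 48.6 TPM in Cont sEV and 14.2, 30.0 and 21.8 TPM in saline. On scaled TPM it had 40.3, 19.0 and 17.4 in TIS sEV, 48.6 in Cont sEV and 14.1, 19.9 and 14.5 in saline. TIS sEV replicate 1 was high on both scales, and the other 2 TIS sEV libraries lay within the saline range once scaled. The scaled difference of Rrm2 was 0.55 (SE 0.34, adjusted p = 0.438) in TIS sEV against saline and 1.55 (SE 0.48, adjusted p = 0.359) in Cont sEV against saline. On deposited TPM the TIS sEV difference was -0.19 (SE 0.65, adjusted p = 0.853 by limma), so its sign too depends on the scaling.

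Tyms, the thymidylate synthase that makes dTMP, had 32.3, 8.13 and 14.7 TPM in TIS sEV, 30.4 TPM in Cont sEV and 19.2, 40.0 and 33.0 TPM in saline. On scaled TPM the ranges were 14.8 to 25.9 in TIS sEV and 19.0 to 26.5 in saline, with 30.4 in Cont sEV. TIS sEV and saline overlapped, with the lowest value in TIS sEV replicate 3, and the Cont sEV value lay above both. The scaled difference of Tyms was -0.10 (SE 0.25, adjusted p = 0.848) in TIS sEV against saline and 0.43 (SE 0.36, adjusted p = 0.639 by limma) in Cont sEV against saline. The ratio of Rrm2 to Tyms, which scaling cannot change, was 1.56, 0.825 and 1.18 in TIS sEV, 1.60 in Cont sEV and 0.742, 0.750 and 0.662 in saline. Every vesicle-treated library had a higher ratio than every saline library. This ratio was picked from 7 after their values were seen, so it is read as a description. Its exact permutation p, TIS sEV against saline, was 0.1, and 0.233 when adjusted over the 7 ratios.

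E2f1, an activator of the genes above, had 13.1, 3.62 and 13.3 TPM in TIS sEV, 15.6 TPM in Cont sEV and 7.67, 15.8 and 12.0 TPM in saline. On scaled TPM it had 10.5, 10.3 and 13.4 in TIS sEV, 15.6 in Cont sEV and 7.62, 10.5 and 7.93 in saline. After scaling, saline replicate 2 reached into the TIS sEV range, and the other saline libraries lay below it. The scaled difference of E2f1 was 0.36 (SE 0.20, adjusted p = 0.411) in TIS sEV against saline and 0.79 (SE 0.29, adjusted p = 0.365) in Cont sEV against saline. On deposited TPM the TIS sEV difference was -0.34 (SE 0.66, adjusted p = 0.746 by limma). The ratio of E2f1 to Rb1, which encodes the protein that restrains it, was 4.99, 5.55 and 7.97 in TIS sEV, 8.18 in Cont sEV and 2.98, 3.89 and 3.86 in saline. It too was higher in each vesicle-treated library than in any saline library, and it too was picked after the values were seen (exact permutation p = 0.1, adjusted p = 0.233). Of the other ratios taken, that of E2f1 to Tyms was also higher in each vesicle-treated library than in any saline library. Those of Rrm2 to Rrm1, Mcm3 to Pcna, Mcm2 to Mcm7 and Pcna to Cdkn1a overlapped between TIS sEV and saline. Rrm2 to Rrm1 was 0.655 in TIS sEV replicate 3, within the saline range of 0.561 to 0.694. Rb1 itself was low in all libraries, at 0.652 to 4.07 TPM as deposited.

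Set beside each other, the 10 genes overlapped between TIS sEV and saline. On scaled TPM, 0 of 10 had all TIS sEV libraries below all saline libraries, where 12.3% of tested genes did, and 0 of 10 had them all above, where 11.4% did. Differences at an unadjusted p under 0.05 on scaled TPM numbered 0 of 10 in TIS sEV against saline, against 14.8% of all tested genes. They numbered 5 of 10 in TIS sEV against Cont sEV (Mcm2, Mcm3, Mcm4, Mcm5 and Pcna), against 4.86% of all tested genes. They numbered 7 of 10 in Cont sEV against saline (those 5 with Rrm2 and E2f1), against 12.8% of all tested genes. No unadjusted p of these survived the adjustment over all genes. On TPM as deposited, the median of the 10 fitted differences, relative to the median gene, was -0.12 in TIS sEV against saline. It was -0.94 in TIS sEV against Cont sEV and 0.76 in Cont sEV against saline. On scaled TPM the same medians were 0.010, -0.86 and 0.80.

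**Figure D3:**
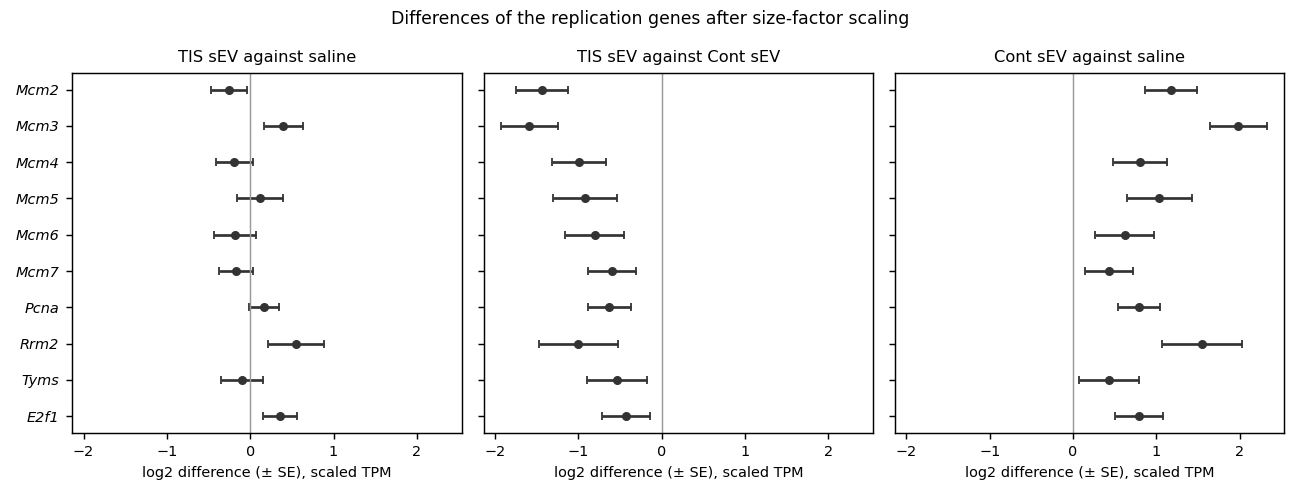
Log2 difference of each replication gene on scaled TPM in the 3 comparisons, with bars of 1 SE from limma. In TIS sEV against saline the values lie between -0.26 and 0.55 on both sides of 0, in TIS sEV against Cont sEV all 10 lie below 0 (-1.59 to -0.43) and in Cont sEV against saline all 10 lie above 0 (0.43 to 1.99), with no adjusted p under 0.05.

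By mean level over the 7 libraries the order was Pcna (104 TPM), Mcm3 (65.2), Mcm7 (34.1), Mcm6 (27.1), Rrm2 (27.0), Tyms (25.4), Mcm5 (18.5), Mcm2 (17.5), Mcm4 (13.4) and E2f1 (11.6). Mcm3 exceeded Mcm7 and Tyms exceeded Mcm5 in 7 of 7 libraries. Each other pair of neighbours in this order changed places in at least 1 library, so their order is not firm. From the lowest to the highest library, scaled levels spanned 5.06-fold for Mcm3, 3.55-fold for Mcm2 and 3.44-fold for Rrm2, and 1.72-fold for Mcm7, the least. The genes varied together across libraries: Pearson's r of log2 scaled levels between members, over 45 pairs and 7 libraries, ran between 0.21 (Tyms and E2f1) and 0.93 (Mcm5 and Pcna), with a median of 0.69. All these values come from the same 7 libraries, 1 of which was the highest for every gene. Pcna was the closest to the mean of the other 9 (r = 0.96) and Tyms the farthest (r = 0.69).

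The genes outside the set whose pattern was most like the mean of the 10 were Asf1b (r = 0.975 over 7 libraries), Mad2l1 (0.974), Tk1 (0.970), Pclaf (0.964), Kpna2 (0.964) and Cenpa (0.962). Asf1b is a histone chaperone, Mad2l1 a spindle checkpoint protein, Tk1 thymidine kinase, Pclaf a partner of Pcna, Kpna2 a nuclear import adaptor and Cenpa the centromeric histone. Tk1 had 65.3, 11.9 and 36.1 TPM in TIS sEV, 86.1 TPM in Cont sEV and 26.1, 58.3 and 50.9 TPM in saline, with the Cont sEV tumour again the highest.

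The other genes of the replication pathway and the cell cycle were described by list, and of their 115 tested genes 0 passed the adjusted test in any comparison. An unadjusted p under 0.05 on scaled TPM was found for 14 of them in TIS sEV against saline, 43 in TIS sEV against Cont sEV and 39 in Cont sEV against saline, beside the 14.8%, 4.86% and 12.8% of all tested genes given above. On TPM as deposited the counts were 6, 2 and 0 of 115, beside 10.3%, 1.73% and 2.33%. Counts above or below the median gene, and the medians beside them, come from the fit on TPM as deposited unless marked as scaled. This holds for the lists and the markers below. The sign of a list gene's difference in TIS sEV against saline can also depend on the scaling. On TPM as deposited Cdc45 had -0.24, Pold2 -0.27, Dut -0.27, Rnaseh2a -0.26 and Birc5 -0.26. Their scaled differences, given below, were positive. List medians in TIS sEV against Cont sEV, relative to the median gene, lay between -0.998 (mitotic genes) and -0.12 (E2F, RB and G1/S cyclin genes), except for the MCM relatives at 0.42. Of the 10 origin recognition and helicase loading genes, 4 lay above the median gene in TIS sEV against saline (median -0.13 relative to it) and 6 in Cont sEV against saline (median 0.62). Orc6, a subunit of the origin recognition complex, had 33.6, 12.2 and 25.9 TPM in TIS sEV, 56.3 TPM in Cont sEV and 23.8, 36.2 and 36.4 TPM in saline. Gmnn, which binds and inhibits Cdt1, had 29.7, 8.60 and 14.5 TPM in TIS sEV, 37.2 TPM in Cont sEV and 14.1, 29.0 and 20.1 TPM in saline. The Cont sEV tumour was again the highest for both. The scaled differences between Cont sEV and saline were 1.20 for Orc6, 1.23 for Gmnn, 1.08 for the loading factor Cdt1 and -0.09 for Orc4.

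Of the 12 tested helicase activation genes, 7 lay above the median gene in TIS sEV against saline (median 0.04) and 11 in Cont sEV against saline (median 0.38). On scaled TPM, 4 had a positive difference and 8 a negative one in TIS sEV against saline (median -0.07). Cdc45, the cofactor that joins the ring and GINS, had scaled differences of 0.51 in TIS sEV against saline and 0.84 in Cont sEV against saline. Among the GINS subunits the values were 0.18 and 0.20 for Gins4, and -0.01 and 0.66 for Gins2, in the same 2 comparisons. Dbf4, the regulatory subunit of the kinase that fires origins, had -0.41 and 0.15.

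Of the 29 polymerase, clamp loader and strand processing genes, 18 lay above the median gene in TIS sEV against saline (median 0.21) and 27 in Cont sEV against saline (median 0.73). Pold2 and Pold4, subunits of polymerase delta, had scaled differences of 0.51 and 0.39 in TIS sEV against saline. Against saline, the Cont sEV tumour gave 0.92 for Pold2 and 0.30 for Pold4. Rpa3, of the single-strand binding complex, had 0.06 and 1.26, and Rnaseh2a, which removes ribonucleotides from DNA, had 0.52 and 0.97, in TIS sEV and in Cont sEV, each against saline.

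Of the 11 further deoxynucleotide genes, 8 lay above the median gene in TIS sEV against saline (median 0.05) and 9 in Cont sEV against saline (median 0.94). The medians on scaled TPM were 0.21 and 0.97. Dut, which clears dUTP, had 124, 46.4 and 148 TPM in TIS sEV, 172 TPM in Cont sEV and 100, 118 and 129 TPM in saline. Its scaled differences were 0.51 in TIS sEV and 0.97 in Cont sEV, each against saline. Dtymk, the thymidylate kinase, had 0.21 and 1.36, Dctpp1, a dCTP pyrophosphatase, had 0.54 and 1.44, and Tk1 had 0.30 and 1.38.

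The E2F, RB and G1/S cyclin genes were split about evenly around the median gene. Of 21 tested, 9 lay above the median gene in TIS sEV against saline (median -0.04) and 11 in Cont sEV against saline (median 0.05). Scaled differences between Cont sEV and saline were 0.21 for Cdk4, -0.14 for Ccnd1, 0.38 for Ccnd3 and 0.11 for E2f4, which act in the commitment to S phase rather than in copying DNA. The same genes in TIS sEV against saline had 0.14, -0.08, 0.81 and 0.07. Of the 7 CDK inhibitors 4 were tested, and 2 of these lay above the median gene in each of these comparisons. Cdkn1a is the p53 target that inhibits CDK2 and binds Pcna. It had 37.6, 12.1 and 22.3 TPM in TIS sEV, 24.9 TPM in Cont sEV and 19.9, 24.1 and 27.3 TPM in saline. Its scaled difference in TIS sEV against saline was 0.64 (SE 0.21, adjusted p = 0.338 by limma). On TPM as deposited it was -0.11 (SE 0.65, adjusted p = 0.915 by limma), so its sign depends on the scaling. On scaled TPM, Cdkn1b had -0.79, Cdkn2c -0.40 and Cdkn2d 0.34 in that comparison.

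Of the 10 genes of S-phase chromatin assembly and DNA methylation, 5 lay above the median gene in TIS sEV against saline (median -0.10) and 10 in Cont sEV against saline (median 0.79). Chaf1b, a subunit of the chaperone that Pcna recruits to new DNA, had 15.5, 5.16 and 16.9 TPM in TIS sEV, 32.3 TPM in Cont sEV and 7.26, 16.5 and 13.7 TPM in saline. Its scaled difference between Cont sEV and saline was 1.74 (SE 0.30), the nearest among the named list genes to that of Mcm3. The other genes named by level were closer to 0 in that comparison, with 0.18 for Nasp, 0.37 for Slbp and 0.11 for Asf1a. The MCM relatives Mcm8 and Mcm9, which act in recombination rather than in licensing, were low (means of 0.757 and 1.09 TPM) and had scaled differences of -0.07 and -0.31 between Cont sEV and saline, below 0 where all 6 ring subunits lay above it. A further relative, Mcmdc2, did not pass the filter, with at most 0.140 TPM.

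The mitotic genes mark the end of the same cycle. Of 16, 1 lay above the median gene in TIS sEV against saline (median -0.41), beside 3 of 10 replication genes (median -0.12). The Cont sEV tumour had 15 of 16 above the median gene relative to saline (median 0.68), beside 10 of 10 replication genes (median 0.76). On scaled TPM, 14 of 16 mitotic genes had a negative difference in TIS sEV against saline (median -0.37), beside 5 of 10 replication genes (median 0.0063). No test of the difference between the sets was run. Birc5, the survivin gene, had scaled differences of 0.52 and 1.57 in TIS sEV and in Cont sEV, each against saline, Cdk1 had 0.14 and 0.99, Top2a -0.13 and 1.14, and Cdc20 -0.19 and 1.22. The ratio of the summed replication genes to the summed mitotic genes was 0.781, 0.990 and 0.813 in TIS sEV, 0.796 in Cont sEV and 0.807, 0.759 and 0.733 in saline. These ranges overlapped, and the Cont sEV tumour lay within that of saline.

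**Figure D4:**
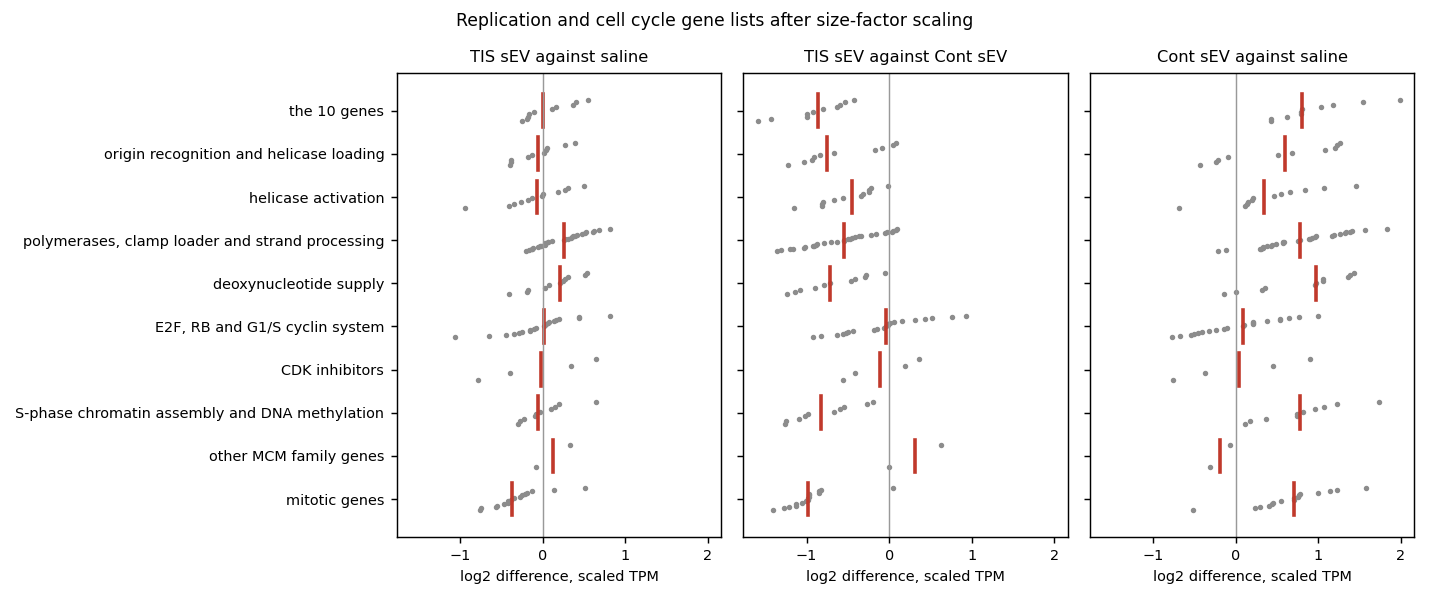
Log2 differences on scaled TPM of the 10 genes and of the other replication and cell cycle lists, where each point is a tested gene and the red line the list's median. In Cont sEV against saline the medians of the replication genes, the chromatin assembly genes, the polymerase list and the mitotic genes lie between 0.71 and 0.80, that of the nucleotide list at 0.97 and that of the E2F, RB and cyclin list at 0.09.

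Markers of other cells differed between the same libraries. The summed scaled level of 5 neutrophil markers was 1419, 2751 and 1679 TPM in TIS sEV, 495 TPM in Cont sEV and 6041, 1309 and 788 TPM in saline. It was thus lowest in the Cont sEV tumour, where the replication genes were highest. It was highest in saline replicate 1, which had the lowest scaled level of the 3 saline libraries for 9 of the 10 genes, where 33.3% of all tested genes had their lowest saline level there. Between these ends the order was not strictly opposite. Saline replicate 3, with 788 neutrophil TPM, had a replication sum of 263 TPM, below the 318 TPM of TIS sEV replicate 1, with 1419 neutrophil TPM. S100a8 and S100a9 made up 1669 and 4233 TPM of the neutrophil sum in saline replicate 1, and 122 and 353 TPM in Cont sEV. The epithelial sum was 1525, 1601 and 2480 TPM in TIS sEV, 2771 TPM in Cont sEV and 1472, 2519 and 2872 TPM in saline, and Krt8 and Krt18 made up 1106 and 1273 TPM of the Cont sEV sum. Gene by gene, most epithelial markers lay on the same side as the replication genes in both comparisons with Cont sEV, though none passed the adjusted test. Of 9 tested, 8 lay above the median gene in Cont sEV against saline (median 0.97, and 1.02 on scaled TPM). In TIS sEV against Cont sEV, 9 of 9 lay below it (median -1.01). In TIS sEV against saline, 7 of 9 lay below it (median -0.48, and -0.33 on scaled TPM). The 10 replication genes had medians of -0.12 and, on scaled TPM, 0.0063 there. All 5 neutrophil markers lay below the median gene in Cont sEV against saline (median -1.53). No neutrophil, epithelial or macrophage marker was at 0 in every library. The macrophage sum was 324, 1186 and 1015 TPM in TIS sEV, 708 TPM in Cont sEV and 308, 664 and 473 TPM in saline, so the Cont sEV tumour lay within the TIS sEV range and above every saline library. The part of cell make-up in the Cont sEV level was not tested.

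**Figure D5:**
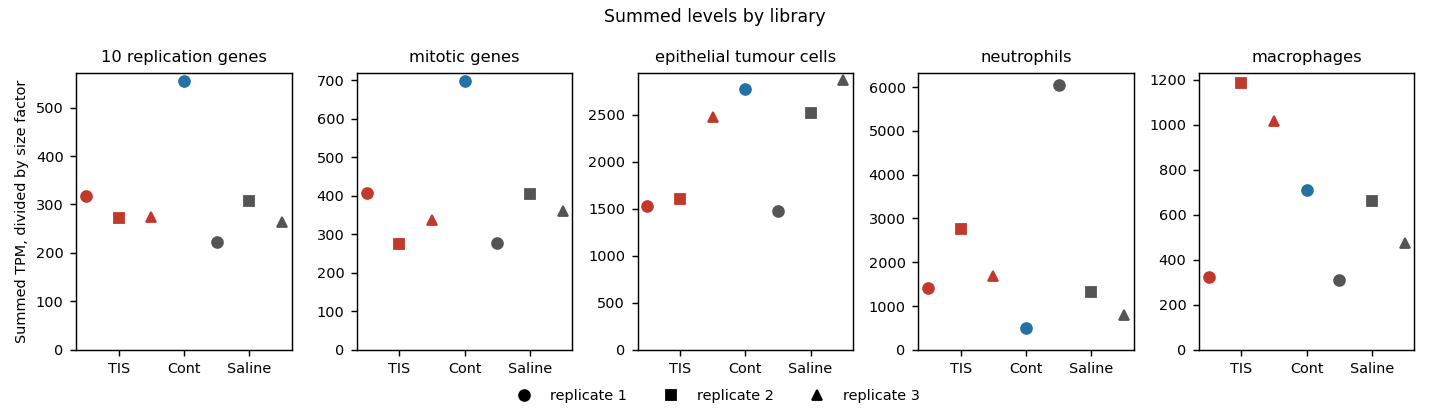
Summed scaled TPM of the 10 replication genes, 16 mitotic genes, and epithelial, neutrophil and macrophage markers in each library, on linear axes from 0, with TIS sEV on the left, Cont sEV in the middle and saline on the right. The Cont sEV tumour has the highest replication sum (554 TPM) and the lowest neutrophil sum (495 TPM), and saline replicate 1 has the lowest replication sum (223 TPM) and the highest neutrophil sum (6041 TPM). Saline replicate 3 is low in both (263 and 788 TPM).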

How the data were processed

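Salmon 1.4.0, DESeq2 1.28.0, FastQC 0.11.9 and Trim Galore 0.6.6 were used on the build GRCm38.p6, per the submitters' processing notes. The authors deposited 1 table of TPM, without counts. Annotation used to sum transcripts is not given in the sources used here. Symbols came from GENCODE M21, where 55227 of 55487 identifiers matched. Genes that reached 1 TPM in 3 or more libraries were fitted on log2(TPM + 1) with limma 3.58.1 (R 4.3.3), 1 mean per group and an intensity trend. The lone Cont sEV library was assumed to vary like the others. This scale understates differences of low genes. In this fit, and in those with 1 library left out, the prior degrees of freedom (the weight of the trend) were infinite. Each SE there follows the trend over all genes and not the gene's own spread. With size factors they were 3.04, so a gene's own spread entered too. Tests were two-sided, with Benjamini-Hochberg adjustment over all 12058 genes, and the script was tested on simulated data. Alternatives were size factors, coding genes rescaled, a pseudocount of 0.1, no filter, a replicate block and each library left out. Size factors without TIS sEV replicate 2 were added after the data were seen.

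The 10 genes, the lists and the markers were chosen with earlier results of these data known. All 10 were named. From each list the up to 4 tested genes of highest mean TPM were named. Genes most like the 10 were the 6 with the highest correlation among those with a mean of at least 5 TPM and no predicted or clone name. Rb1, Mcmdc2 and the ratios were picked after their values were seen. Promoter sequences are from RefSeq (GRCm38.p6).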

Additional observations from a re-analysis of the deposited data

How the results depend on the processing

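No gene of the 10 passed the adjusted threshold under any alternative, except Mcm3 in Cont sEV against saline without TIS sEV replicate 2 (adjusted p = 0.0424, 0.162 to 1 under its other alternatives), so members called with 1 library left out were 0 to 1 there. The count over all genes was unstable. In TIS sEV against saline it was 62, and 0 with size factors, 0 with coding genes rescaled, 0 without the filter, 14 with a replicate block and 6 to 332 with 1 library left out (6 without saline replicate 3, 332 without TIS sEV replicate 1). In TIS sEV against Cont sEV it was 27, and then 1, 0, 246, 5 and 7 to 85 (7 without saline replicate 3, 85 without TIS sEV replicate 2). In Cont sEV against saline it was 25, and then 1, 0, 233, 9 and 6 to 174 (6 without saline replicate 2, 174 without TIS sEV replicate 2). Size factors without TIS sEV replicate 2, added after seeing the data, gave 0, 1 and 1. At an unadjusted p under 0.05, size factors gave 1780, 586 and 1539 genes and coding genes rescaled 1789, 447 and 1776, and 1230 in TIS sEV against saline without the filter. The median of the 10 genes in TIS sEV against saline was -0.61 relative to the median gene without the filter, where the median gene itself differed by -0.13.

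The difference between TIS sEV and saline, below 0 as deposited for all 10 genes, turned above 0 for 5 of them in at least 1 alternative, and the cause was not tested. With size factors they were 0.40 (Mcm3), 0.11 (Mcm5), 0.16 (Pcna), 0.55 (Rrm2) and 0.36 (E2f1). With coding genes rescaled they were 0.079 (Mcm3), 0.24 (Rrm2) and 0.067 (E2f1). Without TIS sEV replicate 2 they were 0.33 (Mcm3), 0.47 (Rrm2) and 0.20 (E2f1), and with size factors as well 0.58 (Mcm3), 0.15 (Pcna), 0.71 (Rrm2) and 0.44 (E2f1). Without saline replicate 2 Rrm2 was 0.052. Over all single libraries left out, the range was -0.76 to 0.33 (Mcm3), -0.90 to 0.47 (Rrm2) and -0.61 to 0.20 (E2f1). Between Cont sEV and saline, coding genes rescaled gave -0.073 (Mcm7) and -0.067 (Tyms), the replicate block -0.10 (Mcm7) and -0.15 (Tyms), and leaving out saline replicate 1 gave -0.15 (Mcm6), -0.18 (Mcm7) and -0.25 (Tyms), and the highest values with 1 library left out were 0.44, 0.30 and 0.26. Whether the replicate numbers pair the samples is not known, since the labels give numbers only. The correlations of same-numbered deviations were -0.38, -0.01 and 0.08, which are too few to decide it. Depth is unknown, so what it limits cannot be stated.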
